A study of Mus musculus with 44 samples.

Results

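The 44 genes described here are interferon-stimulated genes of the mouse, a list of well-known targets of type I interferon signalling taken by symbol. All 44 were matched, 1 gene identifier each, among the 55416 genes of the count files. Their RNA was followed in C57BL/6J mice about 2 months old, with whole homogenates taken of the brain, the liver and the small intestine. The Mn animals had received manganese chloride tetrahydrate at about 50 mg per kg of body weight daily, and the vehicle animals the vehicle without it. There were 8 Mn animals (3 female, 5 male) and 7 vehicle animals (3 female, 4 male), each named by its number, and the 3 tissues came from the same animals. Brain and liver each had 8 Mn and 7 vehicle libraries. Small intestine had 7 of each, since Mn animal 2601 has no such library here, and there were 44 libraries in all. The series set out to find expression changes after Mn exposure that may bear on motor function.

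Type I interferons are secreted proteins that cells release when their sensors detect viral or other misplaced nucleic acid. They bind a receptor made of Ifnar1 and Ifnar2, whose kinases phosphorylate STAT proteins, Stat2 among them. Stat2 and Irf9 are part of a complex called ISGF3, which enters the nucleus and binds the interferon-stimulated response element in the promoters of target genes. The products of these genes block viral entry, translation and replication, and several of them (Irf7, Stat2, Irf9, Ddx58, Ifih1) feed back on the pathway itself. A low tonic level of this signalling is known in healthy tissue, and in the gut epithelium type III interferon, through Ifnlr1, feeds the same complex. Total homogenates hold many cell types, so that fewer cells of a type and less RNA per cell cannot be told apart.

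The promoter sequences show the element through which these genes are known to be switched on. RefSeq promoters (build GRCm38.p6) were at hand for 32 of the 44 genes. The core of the element was searched as GAAA, any 2 bases (N) and GAAA again in the 250 bases before the start of transcription, on both strands, and matches could overlap. It was found in 13 of the 32 genes, or 40.6%, and in 936 of the 27025 genes with a promoter, or 3.46%. The 6 stretches of 60 bases below belong to genes whose values are followed through the tissues, 5' to 3' on the gene's strand. Capitals mark every base that lies in a match, including TTTC, any 2 bases and TTTC, which is the same element read on the other strand. A match is a description of the letters and not a measured binding site.
Isg15 (chr4:156200850-156200909, minus strand): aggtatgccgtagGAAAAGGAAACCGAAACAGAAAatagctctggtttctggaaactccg
Ifit1 (chr19:34640779-34640838, plus strand): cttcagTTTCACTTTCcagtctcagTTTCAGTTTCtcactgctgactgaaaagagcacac
Ifit3 (chr19:34583382-34583441, plus strand): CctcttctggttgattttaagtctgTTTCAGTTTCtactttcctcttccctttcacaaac
Rsad2 (chr12:26456538-26456597, minus strand): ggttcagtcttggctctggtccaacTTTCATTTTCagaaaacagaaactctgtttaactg
Bst2 (chr8:71537562-71537621, minus strand): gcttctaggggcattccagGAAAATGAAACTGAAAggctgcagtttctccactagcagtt
Stat2 (chr10:128270251-128270310, plus strand): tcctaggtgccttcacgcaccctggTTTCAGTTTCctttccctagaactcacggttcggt
In Isg15, 3 matches overlapped in 1 run, in Bst2 the 2 matches overlapped, and in Ifit1 the 2 lay apart. The lone capital that opens the Ifit3 stretch is the last base of a match further upstream. Rsad2 and Stat2 had 1 match each.

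Values are CPM, read counts scaled to a common total of gene reads within each tissue, and 3' tag counts depend little on transcript length. Reads per library ranged between 1796385 and 3798810, so that a gene at 4 CPM rests on roughly 10 reads. The labelled tissues were borne out by the summed markers: hepatocyte markers lay at 52500 to 65600 CPM in liver, enterocyte and crypt markers at 17600 to 25000 CPM in small intestine, and neuronal and glial markers at 10100 to 12800 CPM in brain. Of the 8 Mn brain libraries 7 held reads of another organ: the estimated liver share reached 3.17% and the small intestine share 5.18% (animal 2576), against at most 0.125% and 0.057% in vehicle brain. The vehicle liver library of animal 2630 held a small intestine share of 5.05% and a brain share of 2.79%. Brain shares in the other livers were 0.162% to 2.12% in Mn and 0.554% to 2.33% in vehicle animals, and in small intestine 0.664% to 2.54% in Mn and 0.461% to 2.26% in vehicle animals. Mn intestine 2602 had the highest of these in its tissue. In liver and in small intestine the Mn and the vehicle libraries stood in separate runs of library numbers, so that the treatment and a batch running along those numbers cannot be told apart. In brain the vehicle libraries were numbers 97 to 103, and every Mn library, numbered between 8 and 104, lay outside that run. Such a batch cannot be fully told from the treatment there either. Mn brain 2576, with the small intestine share of 5.18%, was number 8, and 2575, without reads of other organs, was number 104. Whether these reads follow the numbers was not tested.

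In small intestine the interferon response genes were lower in Mn animals, but few passed the test. Of the 42 tested, 42 had a negative log2 change (52.3% of all 11770 tested genes did), with a median of -0.60 against -0.01 over all genes. At an unadjusted p below 0.05 there were 31 of 42, all lower, against 6.13% of all genes. After adjustment over all genes 4 fell and none rose, where 0.119% of all genes fell: Ly6a, Ifitm3, Ifi27l2a and Ly6e (edgeR's quasi-likelihood test, adjusted p below 0.05). Every Mn library lay below every vehicle library in 3 of the 42 genes, Ly6a, Ly6e and Bst2, against 0.161% of all genes. Mx2 and Ifit3b did not pass the count filter in this tissue.

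Ly6a encodes Sca-1, a surface protein of stem cells, endothelium and activated lymphocytes that interferons induce. It had 28.8 to 37.1 CPM in Mn intestines with a median of 34.7, against 41.7 to 59.8 CPM in vehicle intestines with a median of 54.3. The groups did not overlap, and the log2 change was -0.64 ± 0.10 (SE; edgeR adjusted p = 0.0125).
Ly6e, a membrane protein known to restrict coronavirus entry, had 161 to 218 CPM in Mn intestines (median 214), against 230 to 478 CPM in vehicle intestines (median 288). Here too the groups were apart, with a log2 change of -0.60 ± 0.12 (adjusted p = 0.0361).
Ifitm3, which blocks the fusion of viruses with endosomes, had 71.8 to 129 CPM in Mn intestines (median 98.3) and 108 to 172 CPM in vehicle intestines (median 156). The ranges overlapped, with 5 of 7 Mn libraries below every vehicle library and a log2 change of -0.60 ± 0.10 (adjusted p = 0.0156).
Ifi27l2a, a small mitochondrial and nuclear-envelope protein of the ISG12 family, had 22.1 to 49.8 CPM in Mn intestines (median 31.4) and 40.3 to 69.2 CPM in vehicle intestines (median 50.9). Here 6 of 7 Mn libraries lay below every vehicle library, and the log2 change was -0.66 ± 0.14 (adjusted p = 0.0361).
The calls of Ly6a and Ifitm3 were kept when any 1 of the 14 libraries was left out, whereas Ifi27l2a kept its call in 5 of those 14 fits and Ly6e in 6. The number of these genes called was 7 without vehicle animal 2574, where 76 of all 11889 genes were called. It was 2 without any 1 of Mn animals 2576, 2577, 2578 and 2600 or vehicle animals 2628, 2629 and 2630. In those fits 12 to 36 of all genes were called. The animals come in 2 runs of numbers, each with Mn and vehicle mice. Within animals 2572 to 2578 the changes were -0.75 for Ly6a, -0.73 for Ly6e, -0.57 for Ifitm3 and -0.45 for Ifi27l2a, and within animals 2600 to 2630 they were -0.51, -0.50, -0.63 and -0.81. None of the 4 passed in the first run, all but Ly6a passed in the second, and the median over the tested genes was -0.63 in the first and -0.34 in the second.

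Rsad2, Cmpk2, Bst2 and Ifi44 had larger fitted changes than the 4 genes called, with larger errors, and none of them passed. Rsad2 encodes viperin, an enzyme that makes a chain-terminating nucleotide. It had 13.5 to 40.7 CPM in Mn intestines (median 18.7) and 24.6 to 132 CPM in vehicle intestines (median 38.5), a log2 change of -1.55 ± 0.37 (adjusted p = 0.0638). Its neighbour Cmpk2, a mitochondrial nucleotide kinase next to it on the chromosome, had 16.8 to 47.5 CPM (median 21) in Mn and 30.6 to 93.0 CPM (median 39.2) in vehicle intestines, with a log2 change of -1.05 ± 0.26 (adjusted p = 0.0786). In both genes 6 of 7 Mn libraries lay below every vehicle library, and the Mn animal above that line was 2602. Rsad2 passed without vehicle 2572 or 2574 (smallest adjusted p = 0.0301), and Cmpk2 without vehicle 2574 or Mn 2602 (smallest adjusted p = 0.0379).
Bst2 encodes tetherin, which holds budding virus particles at the cell surface. It had 12.5 to 18.1 CPM in Mn intestines (median 14.3) against 19.2 to 63.1 CPM in vehicle intestines (median 22.9). Its groups did not overlap, yet its log2 change of -0.95 ± 0.24 missed the threshold (adjusted p = 0.0841). It was -0.64 without vehicle 2573 and then passed (adjusted p = 0.0399).
Of the 42 genes, 9 had a log2 change below -1, and none of the 9 passed in the fit of all libraries. Ifi44 was the lowest at -1.68 ± 0.44 (adjusted p = 0.0924), with 3.90 to 12.4 CPM in Mn and 6.95 to 58.2 CPM in vehicle intestines.

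**Figure D1:**
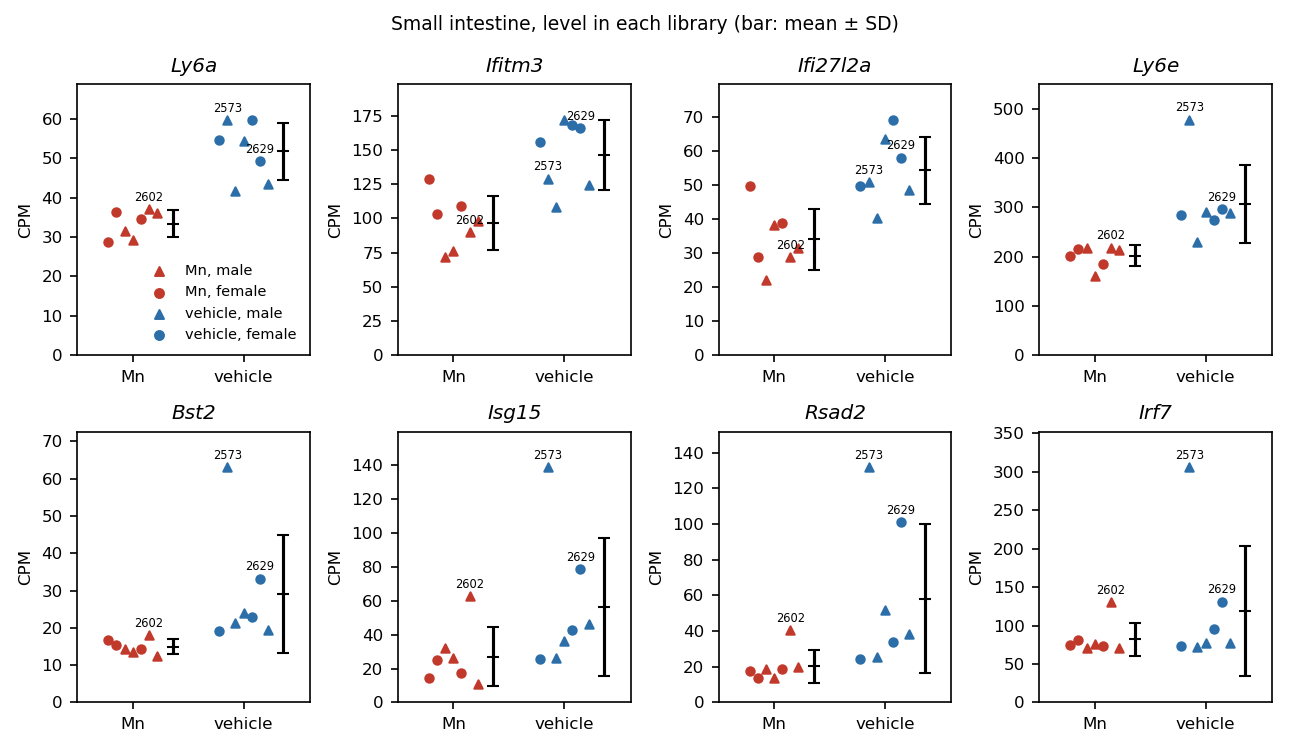
CPM of 8 interferon response genes in each small intestine library, Mn left and vehicle right, males as triangles and females as circles, with the mean ± SD of 7 libraries per group as a bar. Ly6a and Ly6e show separated groups with a narrow spread, while Isg15, Rsad2 and Irf7 are carried upward by vehicle animals 2573 and 2629, and Mn animal 2602 lies highest among the Mn libraries for these last 3 genes.

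Fitted log2 changes in small intestine are given here by role, and no test between roles was run. Among the ubiquitin-like modifier Isg15 and its partners, Usp18 (which removes it) and Herc6 (its mouse ligase), the median was -1.04. Isg15 had 11 to 62.9 CPM in Mn intestines (median 24.8) and 25.8 to 139 CPM in vehicle intestines (median 42.9), a change of -1.13 ± 0.38 (adjusted p = 0.195). The groups overlapped, with 4 of 7 Mn libraries below every vehicle library, and the change was -0.74 without vehicle 2573.
The 3 tested Ifit genes, whose products bind viral RNA ends, had a median of -0.95. Ifit1 stood at -1.24 ± 0.39 (adjusted p = 0.168) and Ifit3 at -0.95 ± 0.38 (adjusted p = 0.305). Without vehicle 2573 they stood at -0.76 and -0.38.
The 6 oligoadenylate synthetase genes, most of which make the activator of RNase L, lay between -1.65 (Oas2) and -0.46 (Oasl1), with Oasl2 at -0.84 ± 0.26. The last 500 bases of the Oas1a transcripts share 40.9% of their 100-base stretches with Oas1g. Multi-mapped reads were not counted, so reads of these stretches may be missing from both genes.
The RNA and DNA sensors Ifih1 (MDA5), Ddx58 (RIG-I), Dhx58, Eif2ak2 (PKR) and Zbp1 had a median of -0.23. Dhx58 (LGP2), a regulator of the first 2, was lowest at -0.86 ± 0.32 (adjusted p = 0.269). Zbp1, which senses left-handed double-stranded nucleic acid, stood at -0.64 ± 0.23 (adjusted p = 0.246), and Ddx58 at -0.12 ± 0.10.
Of the transcription factors, Irf7, the driver of interferon gene induction, had 70.5 to 130 CPM in Mn intestines (median 74.5) and 72.3 to 306 CPM in vehicle intestines (median 77.3). Its medians nearly coincide, and the change of -0.53 ± 0.28 (adjusted p = 0.464) was -0.09 ± 0.16 without vehicle 2573, the library at 306 CPM. Stat2 stood at -0.29 ± 0.13 and Irf9 at -0.11 ± 0.09. Neither passed.
The Parp9, Parp14 and Dtx3l group, an ADP-ribosylation and ubiquitin axis, had a median of -0.29, and Parp14 was lowest at -0.43 ± 0.11 (adjusted p = 0.0786). The 2 guanylate-binding proteins, Gbp3 and Gbp7, had -0.66 and -0.45. The immunoproteasome subunits Psmb8 and Psmb9 and the peptide transporter Tap1, which interferon gamma also induces, lay between -0.06 and -0.02. Psmb8 had 207 to 341 CPM in Mn and 231 to 321 CPM in vehicle intestines.

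**Figure D2:**
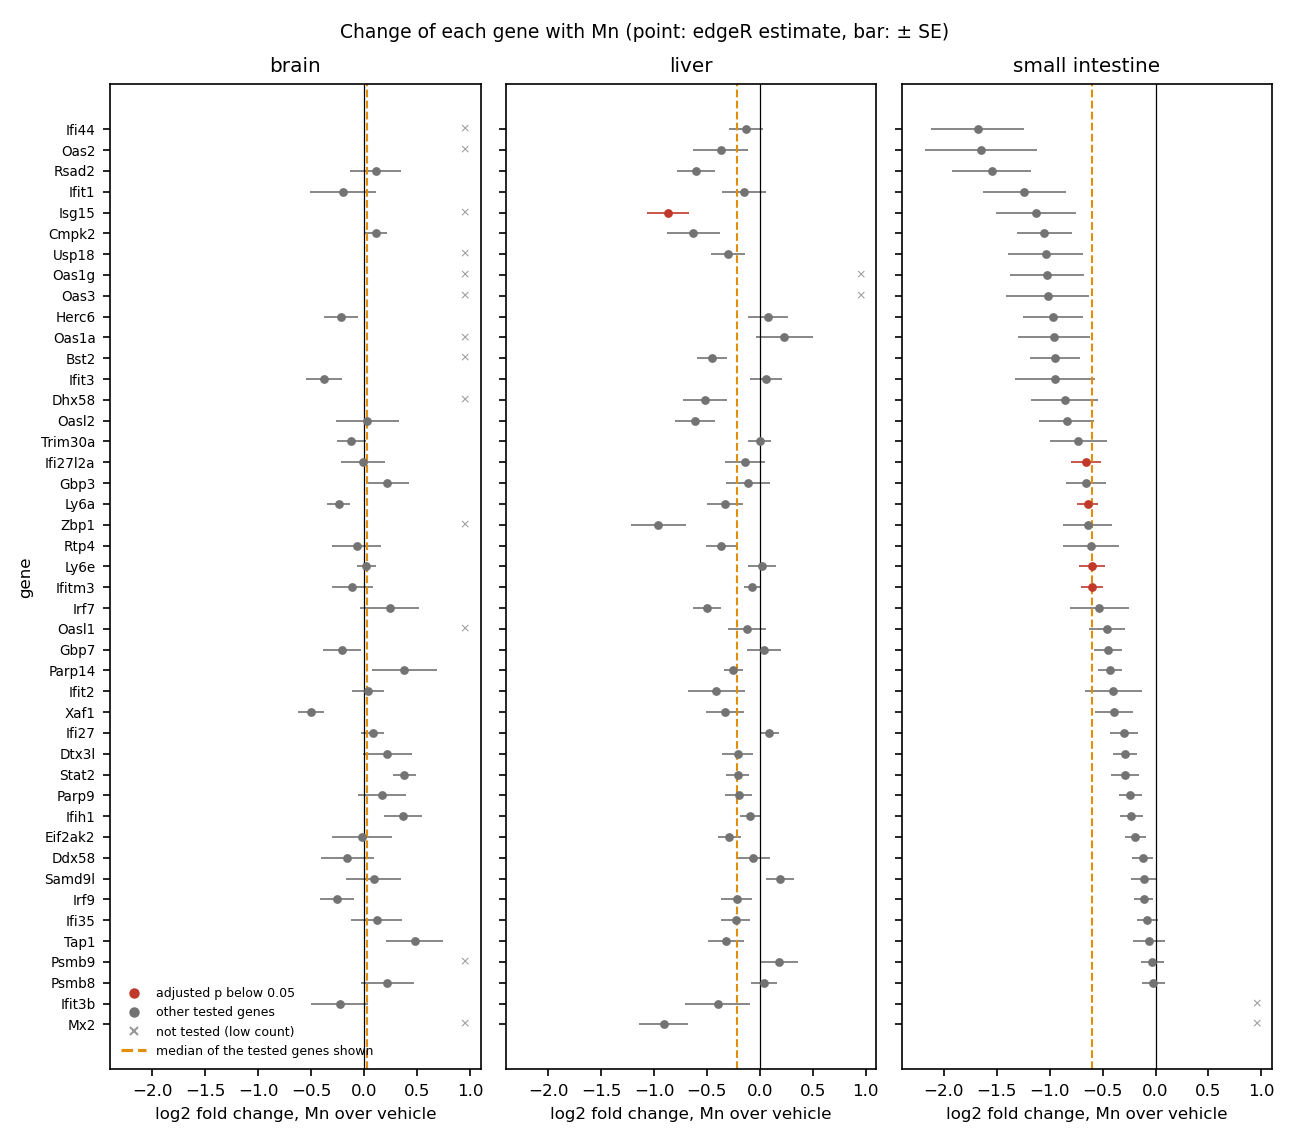
Fitted log2 change of each of the 44 genes, Mn over vehicle, in brain, liver and small intestine, ordered by the value in small intestine, with ± SE bars, red for adjusted p below 0.05, crosses at the right edge for genes under the count filter and a dashed line at the median of the tested genes. In small intestine the 42 points lie left of 0 with a median of -0.60, in liver the median is -0.22, and in brain it is 0.03.

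Vehicle animals 2573 and 2629 carried the highest levels in small intestine. Of the 42 tested genes, 30 had their highest library in 2573 and 6 in 2629, and among the Mn libraries 29 had their highest value in 2602. The coefficient of variation exceeded 50% in 15 of 42 genes in vehicle intestines, against 2.39% of all genes, and in 3 of 42 in Mn intestines, against 2.1%. The mean of the 44 genes on the log2(CPM + 1) scale was 4.97 ± 0.24 in Mn intestines and 5.5 ± 0.45 in vehicle intestines (SD, n = 7 each). It was 6.32 in 2573 and 5.92 in 2629, between 5.07 and 5.39 in the other vehicle animals, 5.48 in Mn animal 2602 and at most 5.03 in the other Mn animals. So 6 of 7 Mn libraries lay below every vehicle library. Leaving out 2573 and 2629 together, a choice made after seeing these values, left 39 of 42 changes negative with a median of -0.23. Ly6a (-0.61, adjusted p = 0.0311) and Ifitm3 (-0.61, adjusted p = 0.0461) were then the 2 genes called.

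**Figure D3:**
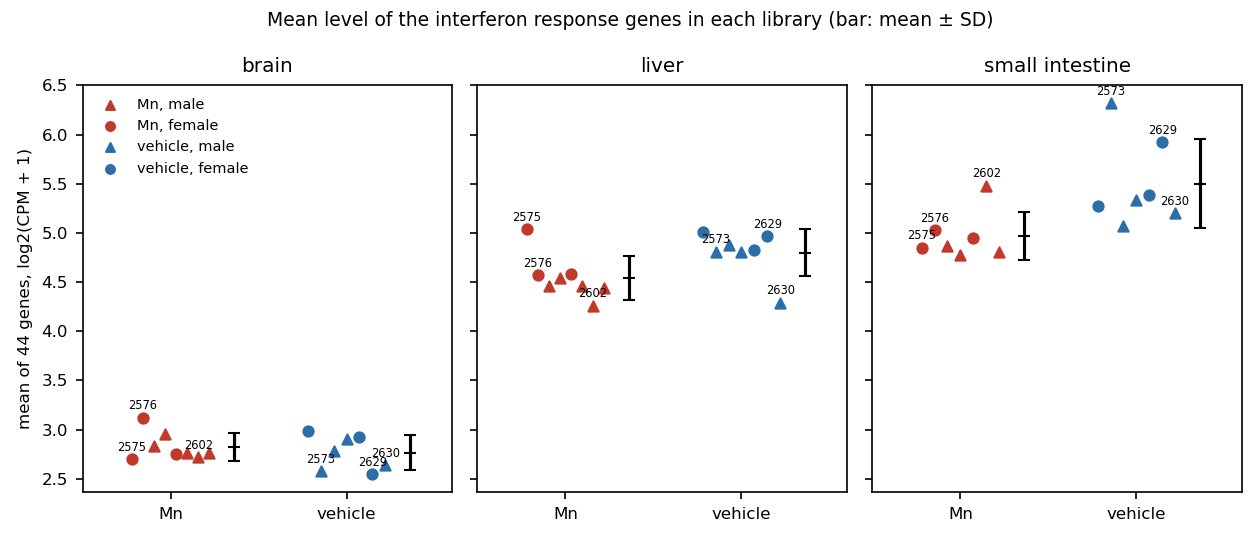
Mean of the 44 genes on the log2(CPM + 1) scale in each library by tissue, Mn left and vehicle right, triangles for males and circles for females, with the mean ± SD of each group as a bar and 6 animals labelled by number. In small intestine 6 of 7 Mn libraries lie below the lowest vehicle value of 5.07, in liver the groups overlap between 4.29 and 5.01, and brain lies lowest at 2.55 to 3.12.

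Markers of other cells moved with the treatment in small intestine. The summed macrophage markers were 317 to 414 CPM in Mn intestines, against 415 to 543 CPM in vehicle intestines, and 11 of 11 tested markers were negative with a median log2 change of -0.34. C1qb, a complement subunit made by tissue macrophages, fell by 0.52 on the log2 scale (adjusted p = 0.0374). The summed enterocyte and crypt markers were 19200 to 25000 CPM in Mn and 17600 to 19400 CPM in vehicle intestines. Endothelial markers summed to 116 to 179 CPM in Mn and 128 to 179 CPM in vehicle intestines, and 7 of 7 tested were negative (median -0.17). B and plasma cell markers were negative in 5 of 5 (median -0.41), with sums of 4390 to 7500 CPM in Mn and 3680 to 10900 CPM in vehicle intestines. Markers of plasmacytoid dendritic cells, known as a main source of type I interferon, were negative in 4 of 4 (median -0.21), with 169 to 245 CPM in Mn and 203 to 494 CPM in vehicle intestines. None of these 3 lists held a call. The dendritic cell list summed higher in vehicle brain (median 374 CPM) than in vehicle small intestine (median 251 CPM), so it may read other cells as well. T and NK cell markers gave 266 to 586 CPM in Mn and 348 to 502 CPM in vehicle intestines. The part of these cell types in the result was not tested. Vehicle 2573, with the highest mean of the 44 genes, had 437 CPM of macrophage markers, and vehicle 2628 had the highest sum of these at 543 CPM.

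In liver 1 of the 42 tested genes fell and none rose, where 0.683% of all 10536 tested genes fell. The gene was Isg15, with 7.95 to 22.6 CPM in Mn livers (median 13.3), against 13.9 to 34.8 CPM in vehicle livers (median 28.6). Mn libraries numbered 5 of 8 below every vehicle library, and the log2 change was -0.87 ± 0.20 (edgeR adjusted p = 0.0424). The call was lost when any 1 of 9 libraries was left out (Mn 2576, 2577, 2578, 2601 or 2603, or vehicle 2573, 2574, 2627 or 2629), with changes between -1 and -0.77 throughout. The number of these genes called was 0 in those 9 fits, where 35 to 70 of all genes were called. It was 2 without vehicle 2572 (226 of all 10645 genes), Mn 2575 (45 of 10442) or Mn 2600 (371 of 10423). It was 3 without vehicle 2630 (91 of 10611). With a term for the run of animal numbers 5 genes fell, against 1.71% of all genes: Isg15, Mx2, Irf7, Rsad2 and Zbp1. Within animals 2572 to 2578 the change of Isg15 was -1.08 ± 0.21 (adjusted p = 0.0180), and within animals 2600 to 2630 it was -0.66 ± 0.29 (adjusted p = 0.384).

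Whether or not they passed, 32 of 42 changes in liver were negative (53.3% of all genes were), with a median of -0.22 against -0.02 over all genes. At an unadjusted p below 0.05 there were 12 of 42, all lower, against 9.58% of all genes. Mx2, a dynamin-like GTPase that restricts viruses, had 3.04 to 7.21 CPM in Mn and 5.82 to 13.5 CPM in vehicle livers, a log2 change of -0.91 ± 0.23 (adjusted p = 0.0566). Irf7 had 31.7 to 57.1 CPM in Mn livers (median 46.0) and 40.7 to 78.4 CPM in vehicle livers (median 68.3), a change of -0.50 ± 0.13 (adjusted p = 0.0590). Zbp1 stood at -0.96 ± 0.26 (adjusted p = 0.0680), with 6 of 8 Mn libraries below every vehicle library.
Rsad2 had 12.5 to 20.5 CPM in Mn livers (median 16.7) and 10.7 to 32.1 CPM in vehicle livers (median 25.8). The change was -0.60 ± 0.18 (adjusted p = 0.0856), and the lowest value of all came from vehicle 2630. Bst2 stood at -0.45 ± 0.14 (adjusted p = 0.0997) and Oasl2 at -0.61 ± 0.19 (adjusted p = 0.112).
Other members showed little difference between the groups in liver. Ifit1 stood at -0.15 ± 0.21, Ifit3 at 0.06 ± 0.15, Stat2 at -0.21 ± 0.11, Irf9 at -0.22 ± 0.15, Usp18 at -0.30 ± 0.16 and Psmb8 at 0.04 ± 0.12, none of which passed. Ly6e, one of the genes that fell in small intestine, had 540 to 822 CPM in Mn livers and 448 to 808 CPM in vehicle livers.
Ifitm3, another of them, had 1000 to 1200 CPM in Mn livers and 941 to 1310 CPM in vehicle livers.
Oas1g and Oas3 did not pass the count filter in liver.

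The liver libraries differed by animal as well. The mean of the 44 genes was 4.54 ± 0.22 in Mn livers (n = 8) and 4.80 ± 0.24 in vehicle livers (SD, n = 7), on the log2(CPM + 1) scale. Mn animal 2575 stood at 5.04, above every vehicle animal, and held the highest Mn value of 25 of the 42 tested genes. Vehicle animal 2630, the library with reads of intestine and brain, stood at 4.29 and held the lowest value of 14. Summed macrophage markers, which include those of Kupffer cells, were 513 to 1030 CPM in Mn and 555 to 1450 CPM in vehicle livers, with 13 of 13 tested markers negative (median log2 change -0.29) and none passing. T and NK cell markers summed to 7.38 to 18.6 CPM in Mn and 15.5 to 45.0 CPM in vehicle livers. Enterocyte and crypt markers summed to 204 to 617 CPM in Mn and 310 to 1560 CPM in vehicle livers, with 9 of 9 tested negative (median -0.83) and none passing. Hepatocyte markers were positive in 8 of 10 (median 0.16), and Tdo2 (0.56, adjusted p = 0.0424) and Hpd (0.44, adjusted p = 0.0472), enzymes of tryptophan and tyrosine breakdown, rose. The part of these cells and reads in the result was not tested.

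**Figure D4:**
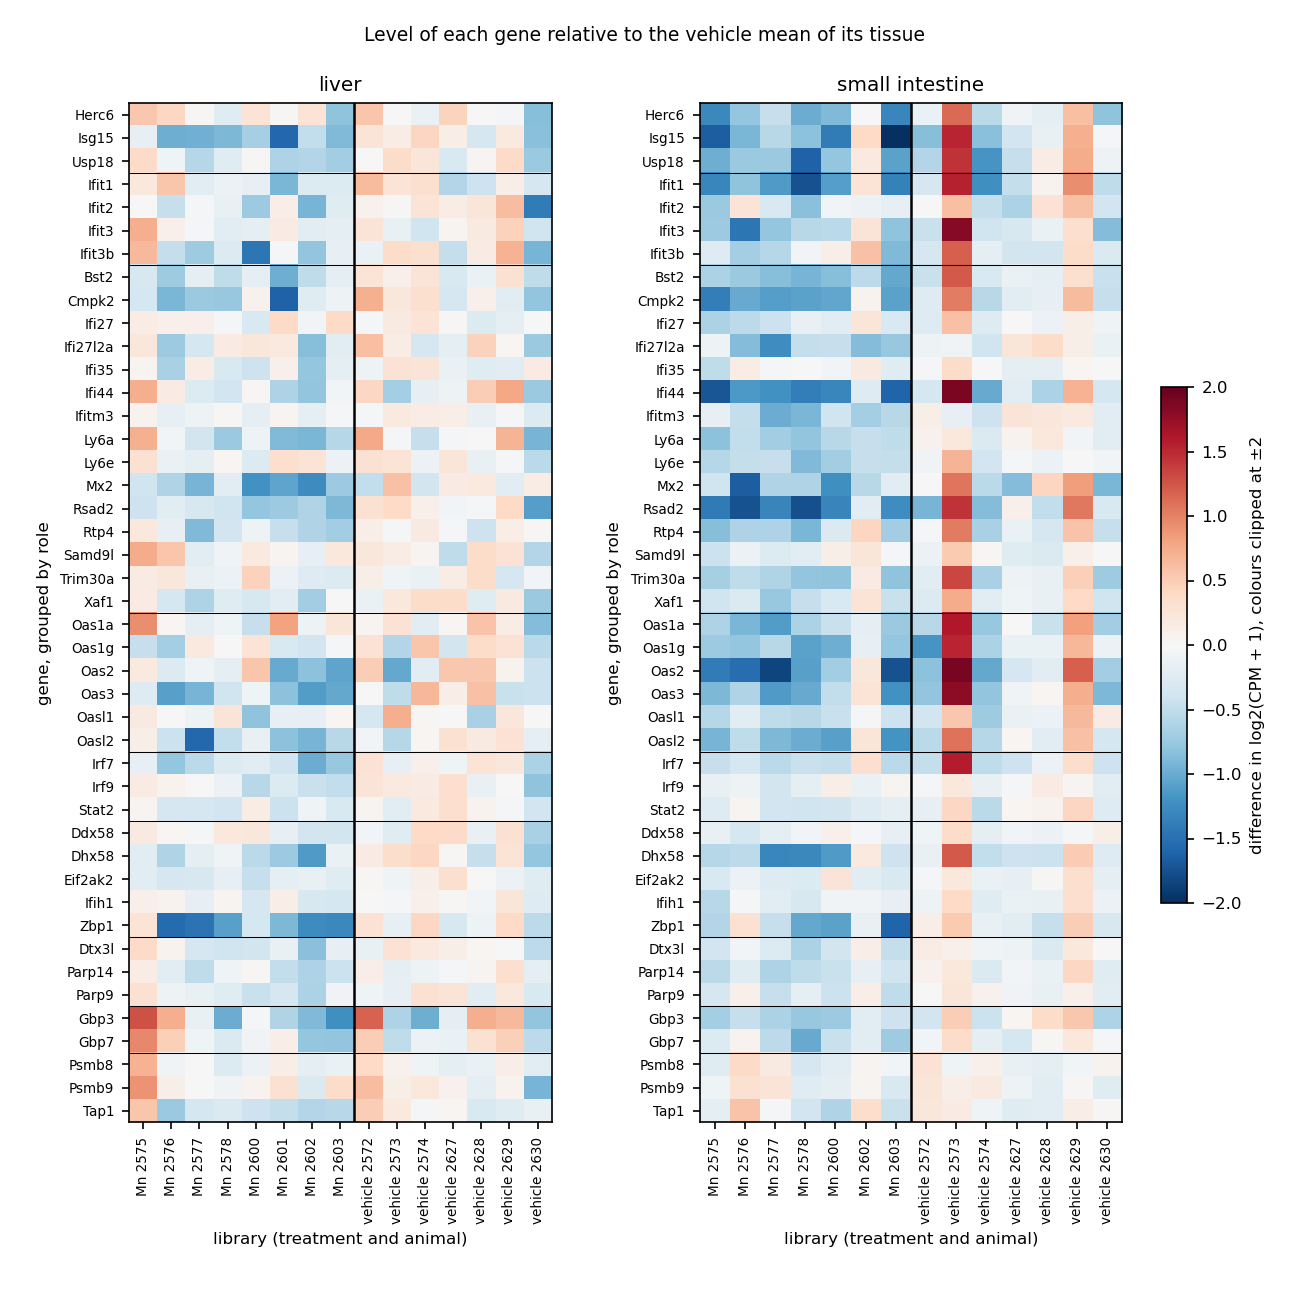
Difference of each gene in each library from the vehicle mean of its tissue, in log2(CPM + 1), for liver and small intestine, with genes in rows grouped by role and Mn libraries left of the vertical line. In small intestine the columns of vehicle 2573 and 2629 are red in most rows and Mn columns other than 2602 are mostly blue, while in liver Mn 2575 is the reddest of the Mn columns and vehicle 2630 the bluest of the vehicle columns.

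In brain none of the 31 tested genes passed in either direction, where 0.575% of all 12872 tested genes did. By edgeR 4 genes had an unadjusted p below 0.05 (8.25% of all genes did), and DESeq2 also called none. The median log2 change was 0.03, against -0.01 over all genes. Xaf1, which opposes inhibitors of apoptosis, had 6.26 to 10 CPM in Mn brains (median 8.53), against 10.6 to 13.2 CPM in vehicle brains (median 12.5). It was the 1 gene of 31 whose groups did not overlap, against 0.0155% of all genes with every Mn library lower, but its change of -0.50 ± 0.12 missed the threshold (adjusted p = 0.0850). Stat2 had 15.7 to 22.2 CPM in Mn and 12 to 19.5 CPM in vehicle brains, a change of 0.38 ± 0.11 (adjusted p = 0.228). Ifit3 stood at -0.38 ± 0.17, Ly6a at -0.24 ± 0.11, Ifih1 at 0.37 ± 0.18 and Tap1 at 0.48 ± 0.27, none past the threshold.
Of the remaining members named throughout, Ifit1 stood at -0.20 ± 0.31, Irf7 at 0.24 ± 0.28, Irf9 at -0.26 ± 0.16, Oasl2 at 0.03 ± 0.30, Rsad2 at 0.11 ± 0.24 and Psmb8 at 0.22 ± 0.25. The genes under the count filter in brain included Isg15 (1.29 to 6.26 CPM in Mn and 0.363 to 2.64 CPM in vehicle brains), Usp18, Zbp1 and Bst2. Isg15, Oasl1 and Psmb8 were highest in Mn animal 2576, the brain library with 5.18% of reads from small intestine. Without the 7 libraries that held reads of other organs, 1 Mn brain (2575) remained, assumed to vary like the vehicle brains. That fit called 2 of all 13587 genes and 0 of 33 members, whose median change was -0.27, and its lack of calls says little. With the shares as covariates 0 were called and the median was -0.19.

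The Mn effect was then compared between tissues in 1 fit of all 44 libraries and 14984 genes. For small intestine minus brain 4 genes passed, all lower, where 3.73% of all genes were lower. Cmpk2 had a difference of -1.20 ± 0.31 (edgeR adjusted p = 0.0133), Stat2 of -0.72 ± 0.19 (0.0140), Ly6e of -0.67 ± 0.19 (0.0285) and Bst2 of -1.92 ± 0.43 (0.00278). Bst2 did not pass the count filter in brain and entered this fit through liver and small intestine, where its level is high. Among the 31 genes that pass in brain, 3 were called lower, against 1.26% of all such genes. For liver minus brain 2 passed, where 5.21% of all genes were lower: Stat2 at -0.62 ± 0.18 (adjusted p = 0.0298) and Bst2 at -1.40 ± 0.40 (adjusted p = 0.0265). Stat2 was the 1 of 31 among genes that pass in brain, against 2.36% of all such genes. These 2 comparisons share the brain libraries, and the count for liver minus brain (2 of 44) is no higher than the background. Bst2 had 3.17 to 9.44 CPM in Mn brains and 0.528 to 3.85 CPM in vehicle brains, and averaged 155 CPM in vehicle liver. The part of the liver reads in the Mn brain libraries in the Bst2 and Stat2 differences was not tested.
For liver minus small intestine no gene of the 44 passed by edgeR, where 0.0734% of all genes did, nor under DESeq2's size factors. At an unadjusted p below 0.05 there were 14 of 44, against 10.1% of all genes. The smallest p belonged to Ifi44 (difference 1.58 ± 0.42, adjusted p = 0.122), Ly6e (0.64 ± 0.18, adjusted p = 0.138) and Herc6 (1.07 ± 0.33, adjusted p = 0.179). So the changes of Ly6e and Ifitm3, called in small intestine, and of Isg15, called in liver, were not shown to differ between liver and small intestine. Ly6e did differ between small intestine and brain, as given above.

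The levels in liver and in small intestine of the same animal were nearly uncorrelated. Over the 14 animals with both tissues, centred by treatment, the mean of the 44 genes had a Pearson r of -0.03 and a Spearman rho of -0.07, given as a description. Both libraries of an animal share its housing and treatment. Gene by gene, 40 members could be correlated among 9777 genes, with a median r of -0.04 against 0.12 over all genes. None passed by permutation test with Benjamini-Hochberg adjustment, where 0.0205% of all genes did, and 1 member had an unadjusted p below 0.05, against 9.18% of all genes. That was Ifi27l2a, with r = 0.58 (permutation p = 0.0370, adjusted p = 0.502), rho = 0.63 (permutation p = 0.0211, adjusted p = 0.490) and r = 0.60 without the 2 animals farthest from the median in liver. Vehicle 2573, at 6.32 in small intestine, stood at 4.81 in liver, close to the vehicle mean there, and Mn 2575, the highest Mn liver, stood at 4.85 in small intestine.

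In liver 6 of the 42 genes were lower in males than in females and none was higher, where 4.45% of all genes were lower and 4.38% higher. Gbp3, a guanylate-binding GTPase of host defence, had 5.27 to 12.2 CPM in male livers (median 7.50) and 13.2 to 34.5 CPM in female livers (median 23.2), so the sexes did not overlap. Its log2 change was -1.58 ± 0.21, male over female (edgeR adjusted p = 5.35e-05). Ifi44 had 8.25 to 14.4 CPM in males (median 11.2) and 15.3 to 26.3 CPM in females (median 20.8; -0.90 ± 0.16, adjusted p = 0.00104), again without overlap. Ly6a stood at -0.91 ± 0.17 (adjusted p = 0.00220), Gbp7 at -0.80 ± 0.16 (adjusted p = 0.00279), Samd9l, an interferon-induced inhibitor of translation, at -0.54 ± 0.13 (adjusted p = 0.0119) and Parp14 at -0.37 ± 0.09 (adjusted p = 0.0208).
The other main antiviral members did not pass by sex, among them Bst2 (-0.15 ± 0.14) and Stat2 (-0.15 ± 0.11). Macrophage markers moved the same way: 13 of 13 tested were negative, male over female, and 11 of them passed. Their sum was 513 to 818 CPM in male and 678 to 1450 CPM in female livers. Endothelial markers were negative in 9 of 10, and 4 passed as lower in males. Snap25 and Mbp, neuronal and myelin genes, were higher in male livers, which include the libraries with brain reads. The part of these in the sex difference was not tested.
In brain and small intestine no member differed by sex after adjustment by edgeR, where 0.109% and 0.153% of all genes did. At an unadjusted p below 0.05 there were 0 in brain (6.42% of all genes) and 2 in small intestine (8.85% of all genes), Ifitm3 (-0.36 ± 0.10, adjusted p = 0.257) and Ifi27l2a (-0.29 ± 0.14, adjusted p = 0.554). No member passed in any tissue for a difference of the Mn effect between the sexes, where 0.0622% of all genes passed in brain, 0.038% in liver and 0.0% in small intestine. At an unadjusted p below 0.05 by edgeR there were 2 of 31 in brain, 1 of 42 in liver and 0 of 42 in small intestine, against 5.52%, 6.36% and 2.75% of all genes. The smallest p was that of Rtp4 in liver (males minus females -0.68 ± 0.23, adjusted p = 0.595).

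**Figure D5:**
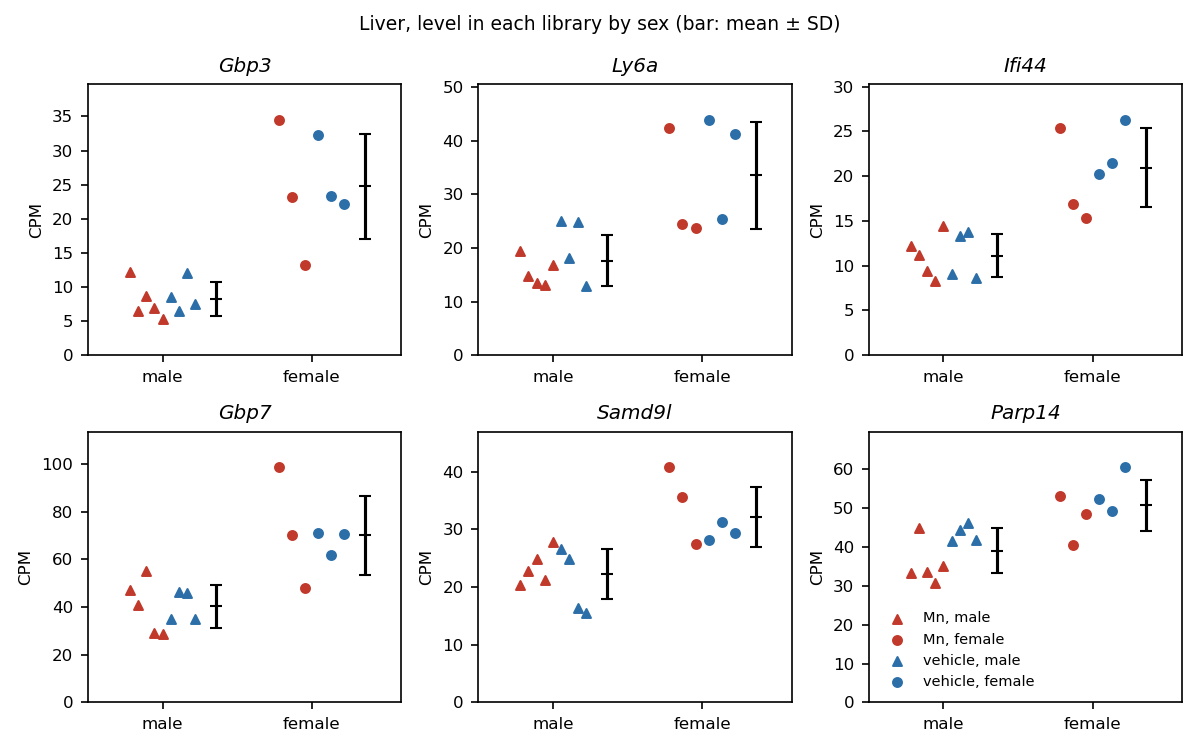
CPM of the 6 genes that were lower in male livers, in each library, with males left (triangles, n = 9) and females right (circles, n = 6), red for Mn and blue for vehicle, and the mean ± SD of each sex as a bar. Gbp3 and Ifi44 show no overlap between the sexes, and Mn and vehicle points are mixed within each sex.

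Across the vehicle animals the 44 genes were lowest in brain. In the fit of the 3 tissues, 41 of 44 were higher in liver than in brain and none lower, where 41.9% of all 14043 genes were higher. In small intestine 41 were higher than in brain and 1 was lower, where 43.2% and 41.8% of all genes were. Members under the count filter in brain are in this fit because of their level in the other tissues, so their difference from brain is built in. Of the 31 that pass in brain, 28 were higher in liver (36.3% of all such genes were) and 28 in small intestine (36.4%). Between small intestine and liver 22 were higher and 8 lower in small intestine, where 36.2% and 32.7% of all genes were. The median of the group means was 52.0 CPM in small intestine, 25 CPM in liver and 5.29 CPM in brain, and 14 of the 44 lay under 4 CPM in brain.
Ifitm3 averaged 146 CPM in vehicle small intestine, 1150 CPM in vehicle liver and 57.7 CPM in vehicle brain, and its log2 change was -3.42 ± 0.15 between small intestine and liver. Bst2 had the same order, at 29.0, 155 and 2.65 CPM. Oasl1 went the other way, with 147 CPM in small intestine, 22.9 CPM in liver and 0.775 CPM in brain. Psmb8 also lay highest in small intestine, with 263, 73.5 and 7.80 CPM in the same order. Ly6a, at 51.9 CPM in small intestine, 27.3 CPM in liver and 53.9 CPM in brain, and Ifit2, at 6.08, 6.37 and 14 CPM, were the 2 genes highest in brain.
The CPM here are scaled within each tissue, whereas the fit scaled the tissues together, which placed the log2 difference between small intestine and liver 0.44 lower at the median of the 44 genes, and those of small intestine and of liver over brain 0.30 and 0.73 higher. The order by CPM and the sign in the fit differed for Gbp3, Ifi27l2a, Ifi44, Ifit3, Irf9 and Rtp4 between small intestine and liver and for Ly6a between small intestine and brain, and none of these 7 passed the test.

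Upstream of these genes, interferon transcripts themselves were almost not seen. None of the 21 interferon genes passed the count filter in any tissue, and Ifnb1 had no read in any group. Ifng had the most reads, 1 in Mn and 7 in vehicle small intestine over all libraries of the group. At this depth such counts show no difference in ligand expression. The receptor chain Ifnar1 had 26.3 ± 3.90 CPM in Mn and 24.8 ± 2.56 CPM in vehicle small intestine (SD, n = 7 each; log2 change 0.09 ± 0.10). Ifnar2 stood at -0.33 ± 0.24 there, -0.34 ± 0.19 in liver and -0.33 ± 0.25 in brain, none past the threshold. Ifnlr1, the type III receptor chain, had 18.9 ± 2.58 CPM in Mn and 15.8 ± 2.94 CPM in vehicle small intestine (0.27 ± 0.14, adjusted p = 0.448), and under 1 CPM in liver and brain. Irf3, the constitutive activator of interferon genes, stood at -0.13 ± 0.08 in small intestine, 0.24 ± 0.10 in liver and -0.12 ± 0.09 in brain, and its adjusted p in liver was 0.241.
Of the receptor and JAK-STAT list 0 of 15 tested genes passed in small intestine, with 10 positive and 5 negative and a median of 0.03. Of the sensors, adaptors and kinases that induce interferon 0 of 14 passed, with a median of -0.09. A second list of interferon-stimulated genes outside the 44 had 42 of 44 tested genes negative in small intestine (median -0.29), against 52.3% of all genes. In liver 32 of 43 were negative (median -0.21), against 53.3% of all genes. It was read in the same libraries as the 44 and is no independent check of them. None of that list passed in either tissue. Antigen presentation genes of MHC class I had a median of -0.05 in small intestine and -0.06 in liver, with none passing.
In brain, where 0.559% of all genes rose, 1 of 22 of the second list rose, the lectin Lgals9 (0.88 ± 0.19, adjusted p = 0.0369), and 2 of 12 class I genes rose, B2m (0.68 ± 0.15, adjusted p = 0.0405) and H2-K1 (0.76 ± 0.16, adjusted p = 0.0291). Mn brain libraries held the reads of other organs given above, and hepatocyte markers rose there in 6 of 8 tested genes, with sums of 75.3 to 5070 CPM in Mn and 42.8 to 574 CPM in vehicle brains. With the liver and small intestine shares as covariates 0 of all 12872 genes passed, against 74 in the main fit, so these 3 calls were lost. The shares run largely along with the treatment, so that fit cannot separate the part of those reads from it.

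The promoter element and the size of the change were set side by side as a description. In small intestine the 12 tested genes with the element before the start had a median log2 change of -0.95 (range -1.55 to -0.29), and the 19 without it had -0.29 (range -1.68 to -0.02). In liver the medians were -0.15 over 11 genes with it and -0.21 over 19 without it. Isg15, the gene called in liver, holds the element, whereas Ifitm3, called in small intestine, has no match in its window. Neighbouring genes are not independent here. Cmpk2 and Rsad2, Oas1a and Oas1g, Oas2 and Oas3, and Gbp3 and Gbp7 lie next to each other with no protein-coding gene between. The same holds for Ifit2 and Ifit3, Oasl1 and Oasl2, and Ifi27 and Ifi27l2a. It also holds for Dtx3l with Parp14 and with Parp9, and for Tap1 with Psmb8 and with Psmb9.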

How the data were processed

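Raw read counts per gene, 1 file per library, were used as deposited by the authors. Per the labels' protocols, TagSeq libraries of the 3' ends of mRNA were sequenced as single reads of 100 bases. The submitters' processing notes name the build GRCm39 and STAR 2.7.10b, with HTSeq 0.2.0 and FastQC 0.12.0, and also DESeq2 1.12.3 in R 4.2.2. The handling of molecular identifiers and duplicates is not given in those sources, so tests rest on reads. Reads assigned to genes were 60.7% to 69.8% of the records and multi-mapped reads, which were not counted, 23.8% to 34.8%. Summary and spike-in entries (4 spike-in reads in all) were left out. Symbols were matched by gene identifier (52083 of 55416) to a GRCm38 annotation, and promoters came from RefSeq on GRCm38.p6, so no coordinate was carried to the build of the counts.

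Mn and vehicle libraries of each tissue were set against each other by edgeR's quasi-likelihood test (edgeR 4.0.16, R 4.3.3) with TMM scaling (factors 0.942 to 1.07), a sex term, filterByExpr (at least 10 reads in enough libraries, 15 in total) and Benjamini-Hochberg adjustment over all tested genes at 0.05. All tests are two-sided. SE is the absolute log2 change over the root of F. Tissue contrasts used 1 fit of all libraries, and sex by treatment was a term of each tissue's fit. Alternatives included DESeq2 1.42.0, other scalings, no count filter, no sex term, runs of animal numbers and each library left out. The shared numbers mark the same animal, per the labels, so tissues are paired by animal and treatments are not. Over 9216 genes the residuals of tissues of 1 animal, after subtracting group means, had a median correlation of 0.20 between liver and small intestine, 0.09 between brain and liver and 0.08 between brain and small intestine. Correlations across animals used 100000 permutations. The share of another organ's profile in a library came from marker genes that average 100 CPM or more in vehicle libraries of that organ. In the lowest library of the library's own tissue they reach no more than 0.5% of this. In vehicle libraries of the third tissue they average no more than 10% of it. The tests were checked on simulated counts with known changes. Replicates of a group differed beyond sampling noise (chi-square per gene 1.47 or more). The edgeR tests set the difference between groups against the spread between libraries, 1 per animal and tissue. That spread holds differences between animals and those of library preparation together. The 44 genes, the other lists and the markers were chosen with earlier results of these data known. Genes were named if called, if among the 6 smallest p of a tissue (3 to 5 in other contrasts), among the highest or lowest levels, or on a short list of pathway genes.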

Additional observations from a re-analysis of the deposited data

Results flagged for a closer look

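Within a group, a library was picked out when its gap to the next value was a large share of the group's range (Dixon's test at the 95% level), which happens by chance in about 1 of 20 groups, and 12 of 78 tested values were picked out. In small intestine, Mn animal 2602 stood above the other Mn libraries in the mean of the 44 genes (5.48 on the log2 scale), in Irf7 (130 CPM) and in Rsad2 (40.7 CPM), and vehicle animal 2573 stood above the other vehicle libraries in Irf7 (306 CPM). In liver, Mn animal 2575 stood apart at a mean of 5.04, with 24.6 CPM of Ifit3 and 118 CPM of Psmb8. Vehicle liver 2630 stood low at a mean of 4.29, with 23.6 CPM of Irf9 and 10.7 CPM of Rsad2, and this is the library with reads of intestine and brain. In brain, Mn animal 2576 had 20.2 CPM of Psmb8, and vehicle animal 2630 had 0.528 CPM of Bst2.

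The Mn effect differed between tissues by the interaction test in 6 cases. For small intestine minus brain these were Bst2 (-1.92), Cmpk2 (-1.20), Stat2 (-0.72) and Ly6e (-0.67) on the log2 scale. There 3.73% of all genes were lower. For liver minus brain they were Bst2 (-1.40) and Stat2 (-0.62), where 5.21% of all genes were lower. The 2 of 44 for liver minus brain are no higher than that share. Bst2 did not pass the count filter in brain. All 6 are set against brain, where 7 of 8 Mn libraries held reads of other organs, and the part of those reads was not tested.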

How the results depend on the processing

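Calls among all tested genes are given in brackets. In small intestine 4 of 42 genes were called (54 of 11770). The count was 27 of 44 with no count filter (521 of 25178) and 7 of 35 with DESeq2's Wald test (133 of 7780). It was 2 of 42 with no sex term (38 of 11770) and 0 of 42 within animals 2572 to 2578 (8 of 11764). Without vehicle 2573 and 2629 together it was 2 of 42 (23 of 11952). It was 2 to 7 when each animal was left out, where 12 to 120 of all genes were called. The scaling by DESeq2 size factors left 4 of 42 (54 of 11770) and a term for the run of animal numbers 4 of 42 (90 of 11770). Animals 2600 to 2630 alone gave 3 of 43 (147 of 12048). All libraries but 4 males (2602, 2603, 2627 and 2630, added after seeing the data) gave 3 of 42 (31 of 11680). In liver 1 of 42 was called (123 of 10536). The count was 6 of 44 with no count filter (519 of 23544) and 3 of 26 with DESeq2's Wald test (394 of 7009). Of 42 genes it was 0 with no sex term (19 of 10536) and 5 with a term for the run of animal numbers (299 of 10536). It was 3 within animals 2572 to 2578 (198 of 10522) and 0 within animals 2600 to 2630 (4 of 10733). Without the males 2601, 2602, 2603, 2627 and 2630 it was 0 (51 of 10483). It was 0 to 3 with each animal left out, where 35 to 371 of all genes were called. In brain it was 0 in the alternatives run, except 1 of 31 (Ly6a) within animals 2600 to 2630. That fit called 1607 of all 12914 genes, a larger share than 1 of 31. By sex, small intestine gave 2 of 44 with no count filter (371 of 25178). It gave 0 to 1 with each animal left out, where 11 to 28 of all genes were called. Liver gave 5 to 8 of 42 with each animal left out, where 622 to 1032 of all genes were called. With no count filter small intestine minus brain gave 7 of 44 (680 of 29921) and liver minus small intestine 1 of 44 (45 of 29921). The cause of these shifts was not tested.

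With the animal as a replicate block, the Mn effect for small intestine minus brain gave 5 calls (572 of all 14984 genes). Liver minus brain gave 2 (860 of 14984) and liver minus small intestine 0 (7 of 14984). Without the block these were 4, 2 and 0 (574, 865 and 11 of 14984). The vehicle tissue contrasts with the block gave 32, 42 and 41 of 44, where 9671, 11925 and 11688 of all 14043 genes were called. No block was possible for Mn against vehicle, since no animal had both. Of 1330 values of single genes under alternatives, 1251 kept their direction and side of the threshold. Of the rest, 39 passed it newly and 40 no longer passed, and none changed sign while called. A call can be lost only by a gene that passed in the main fit. Over 23 alternatives each, Ly6a and Ifitm3 kept their small intestine call in 21, Ly6e in 12 and Ifi27l2a in 10. Isg15 kept its liver call in 11 of 23. The adjusted p ranged over the alternatives between 1.83e-06 and 0.0968 for Ly6a, 1.08e-07 and 0.0885 for Ifitm3, 4.26e-07 and 0.523 for Ifi27l2a, 1.4e-08 and 0.234 for Ly6e, and 0.000152 and 0.384 for Isg15 in liver. Genes near 4 CPM, among them 14 of the 44 in vehicle brain, rest on few reads, and smaller differences there were not detectable at this depth.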
